A study of Mus musculus with 17 samples.

Results

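The sirtuins and the enzymes by which cells rebuild NAD were examined in mouse hearts with and without somatic mtDNA mutagenesis. The 10 genes were chosen by name among the 56748 genes of the count table: the 7 sirtuins *Sirt1* to *Sirt7* and 3 NAD salvage enzymes, *Nampt*, *Nmrk1* and *Nmrk2*. RNA was profiled in heart tissue of mice at an age of 12 to 16 months, and the labels do not say which part of the heart was taken. The groups are controls (Ctrl, 8 hearts) and *Polg* hMut animals (hMut, 9 hearts), and each heart gave 1 library. The hMut mice carry *Polg* iMut/iMut and +/Ckmm-cre, from an allele targeted in C57BL/6N embryonic stem cells. Their inducible allele expresses wild-type POLG until cre removes a floxed cDNA cassette, after which both alleles encode a mtDNA polymerase without proofreading. The muscle creatine kinase promoter that drives cre is active in cardiomyocytes and skeletal muscle from mid-gestation, so the vessel, connective tissue and immune cells of these hearts keep the unrecombined allele. The genotype of the Ctrl mice is not described further in the labels, and neither is the sex of any mouse.

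NAD is both an electron carrier and a consumed substrate. Sirtuins remove acyl groups from proteins and split NAD in doing so, releasing nicotinamide. SIRT1, SIRT6 and SIRT7 act mainly in the nucleus, SIRT2 in the cytosol and SIRT3, SIRT4 and SIRT5 in mitochondria. NAMPT, the rate-limiting salvage enzyme, returns nicotinamide to nicotinamide mononucleotide (NMN), while NMRK1 and the muscle-type enzyme NMRK2 make NMN from nicotinamide riboside. In the heart, *Nmrk2* is known for rising in several forms of cardiomyopathy.

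*Nmrk2* was the member that passed the test of a difference between the groups, and the sequence before its start is shown for that reason. In GRCm39, *Nmrk2* occupies chromosome 10 from 81034004 to 81037885, on the minus strand. The stretch below precedes the gene on its own strand, at chr10:81037889-81038121, and comes from RefSeq's promoter table, whose GRCm38.p6 window matched GRCm39 once. Capitals mark a TATA box, TATAAA.
Nmrk2: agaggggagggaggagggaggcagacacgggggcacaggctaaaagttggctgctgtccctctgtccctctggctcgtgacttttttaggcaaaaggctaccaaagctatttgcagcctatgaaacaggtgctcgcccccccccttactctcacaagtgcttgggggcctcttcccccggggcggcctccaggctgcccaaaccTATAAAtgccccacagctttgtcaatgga

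The TATAAA match ended 41 bases before the RefSeq start, which lies inside the gene as GENCODE annotates it. The 17 bases of the window that fall within the gene are not printed above. Windows of 250 bases were found for all 10 members (12 windows, since some members have several starts), and on either strand the *Nmrk2* window was the 1 that held TATAAA, against 12.4% of 32851 windows of all genes. The ATF4-CHOP element TGATGNAA (3.45% of all windows), the cAMP response element TGACGTCA (1.55%), the MEF2 site (2.92%) and the CArG box (1.47%) were in 0 of the 12 windows. The E-box CACGTG was in the *Sirt1* window (6.02% of all), and the nuclear receptor element AGGTCA in those of *Nampt* and *Sirt5* (14.0% of all).

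The libraries held 34425783 to 46486964 counts in Ctrl and 32915159 to 40175122 in hMut. Every member passed the filter on low counts, with at least 122 counts in each heart. Levels are given as CPM, counts scaled to the same TMM-normalized library size in every heart. The 10 cardiomyocyte markers had the highest summed level of the marker lists, between 44537 and 53750 CPM in Ctrl and between 34291 and 51820 CPM in hMut. It was lowest in hMut replicates 9 (34291 CPM) and 6 (37458 CPM). All 10 log2 fold changes were below 0 (median -0.22), and 0 of the 10 passed the test. Because whole tissue was measured, fewer cells of a type and less RNA per cell cannot be told apart.

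Of the 10 members, 1 differed between hMut and Ctrl hearts at an adjusted p under 0.05. *Nmrk2* rose, when 3.48% of the 16195 genes tested were called higher, 1.14% lower and 4.62% in either direction (quasi-likelihood test of edgeR, p-values adjusted by Benjamini-Hochberg). The median log2 fold change over the 10 members was -0.12, against 0.0023 over all genes tested.

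*Nmrk2* ranged from 7.24 to 11.7 CPM in the Ctrl hearts (median 8.46) and from 11.5 to 103 CPM in the hMut hearts (median 25.5). The hMut replicates 1 and 2 lay inside the Ctrl range, and the other 7 hMut hearts lay above every Ctrl heart, as at least 7 did for 3.80% of all genes tested. Replicate 6 held 103 CPM and replicate 9 held 86.1 CPM, and the next heart, replicate 7, held 34.0 CPM. The mean rose from 8.95 ± 1.67 CPM (SD, n = 8) to 38.2 ± 33.2 CPM (SD, n = 9), a log2 fold change of 2.09 (SE 0.41, 95% confidence interval 1.24 to 2.95, edgeR adjusted p = 0.00646). In fold terms this is 4.27 times, with an interval from 2.36 to 7.70, and the change ranked 42 among the 564 genes called higher. Without replicates 6 and 9 the log2 fold change was 1.30 (adjusted p = 0.00176), from a mean of 22.0 ± 8.89 CPM (SD) in the remaining 7 hMut hearts.

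**Figure D1:**
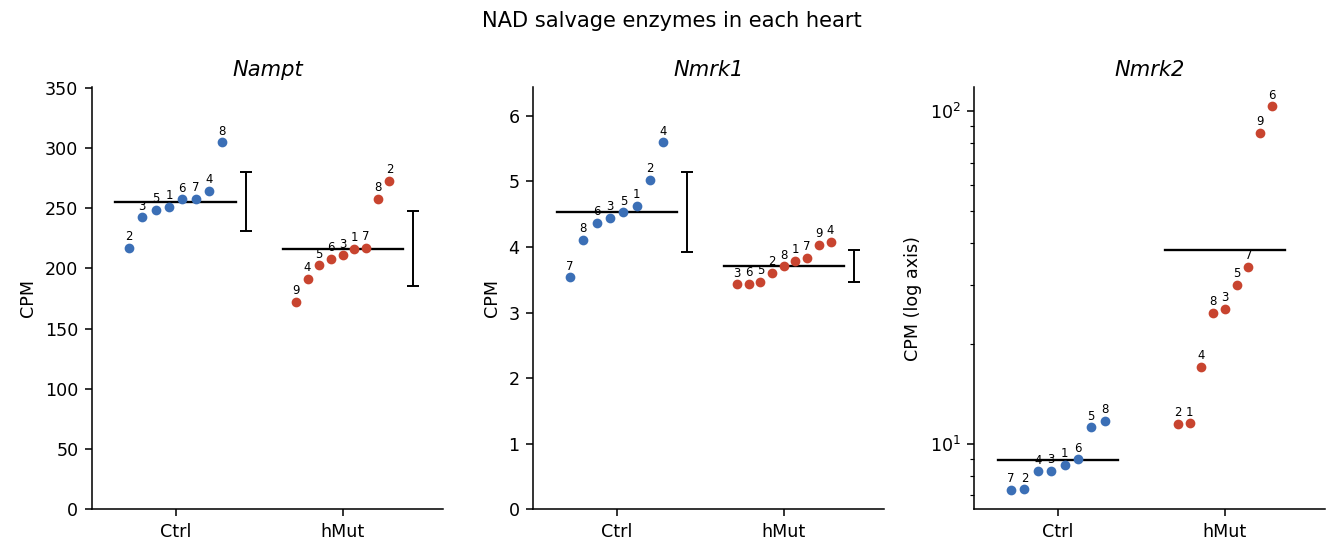
CPM of *Nampt*, *Nmrk1* and *Nmrk2* in each heart (points, labelled by replicate number and sorted within a group), with the group mean as a line and, for *Nampt* and *Nmrk1*, the SD as a bar; the *Nmrk2* axis is logarithmic. The hMut replicates 6 and 9 stand at 103 and 86.1 CPM of *Nmrk2*, and replicates 1 and 2 lie within the Ctrl range.

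Markers of some other cells, but not of all, were also high in hMut replicates 6 and 9. The 8 macrophage markers summed to 262 to 376 CPM in Ctrl and 325 to 1245 CPM in hMut, with 1245 CPM in replicate 6 and 650 CPM in replicate 9. Of the 8, 0 passed the test. *Cd163* of this list, named after its values were seen, held 11.6 and 10.7 CPM in these hearts, within its Ctrl range (9.06 to 18.3 CPM). The 7 fibroblast markers summed to 860 to 1026 CPM in Ctrl and 869 to 1756 CPM in hMut, with 1756 CPM in replicate 6 and 1378 CPM in replicate 9, and 0 passed. *Nppa*, an atrial and stress-induced natriuretic peptide gene, ranged from 35.9 to 164 CPM in Ctrl and from 76.3 to 685 CPM in hMut, with 685 and 423 CPM in the same hearts (adjusted p = 0.101). The 8 lymphocyte markers summed to 2.53 to 41.7 CPM in Ctrl and 5.54 to 63.6 CPM in hMut, the highest in replicate 6. In replicate 9 their sum was 9.78 CPM, within the Ctrl range. Of the other lists, 1 of 6 endothelial markers, *Kdr* (log2 fold change 0.39, edgeR adjusted p = 0.0407), and 1 of 6 smooth muscle and pericyte markers, *Pdgfrb* (0.24, adjusted p = 0.0442), rose. Over all genes tested, 3.48% were called higher. Summed endothelial markers held 818 CPM in replicate 6, within the Ctrl range (738 to 924 CPM), and 1022 CPM in replicate 9. Summed smooth muscle and pericyte markers held 741 CPM in replicate 6, below every Ctrl heart (788 to 1056 CPM), and 1089 CPM in replicate 9. Skeletal muscle is a tissue rich in *Nmrk2*. Of its 8 markers 4 were tested and 0 called, with log2 fold changes of 0.51 for *Tnni2*, 0.68 for *Tnnt3* and 0.08 for *Mylpf*, each at most 2.49 CPM, and -0.46 for *Mybpc2*, which held most of the summed level (12.9 to 23.0 CPM in Ctrl, 11.3 to 19.6 CPM in hMut). The fast myosin genes *Myh1*, *Myh2* and *Myh4* did not exceed 0.341 CPM in any heart. The part of any of these cells in the *Nmrk2* result was not tested.

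The genes whose level followed *Nmrk2* most closely from heart to heart were *Map1a*, *Ddit3* and *Ppp1r15a*. Likeness was the Pearson correlation of log2 CPM deviations from the group means over the 17 hearts, among all genes tested, and is given as a description. It was 0.967 for *Map1a*, which encodes a microtubule-associated protein. For *Ddit3*, which encodes the stress-response transcription factor CHOP, it was 0.966. For *Ppp1r15a*, which encodes GADD34, the phosphatase subunit that acts on eIF2α, it was likewise 0.966. Leaving out hMut replicates 6 and 9, the same correlations were 0.930, 0.912 and 0.952 over 15 hearts.

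*Ddit3* ranged from 12.4 to 16.9 CPM in Ctrl and from 15.6 to 80.3 CPM in hMut (median 23.7), with 80.3 CPM in replicate 6 and 60.7 CPM in replicate 9. Its log2 fold change was 1.23 (SE 0.28, edgeR adjusted p = 0.0181). *Map1a* rose by 1.24 on the log2 scale (SE 0.24, adjusted p = 0.00544) and *Ppp1r15a* by 0.63 (SE 0.15, adjusted p = 0.0263). The integrated stress response, the translational program that *Ddit3* belongs to, was covered by a list of 12 genes. All 12 were called higher, with a median log2 fold change of 2.80, when 3.48% of all genes tested were called higher. The smallest adjusted p values were those of *Mthfd2*, a mitochondrial folate enzyme (log2 fold change 4.07, adjusted p = 3.82e-07), *Asns*, asparagine synthetase (3.56, adjusted p = 4.56e-06), and *Psat1*, an enzyme of serine synthesis (2.74, adjusted p = 4.56e-06).

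**Figure D2:**
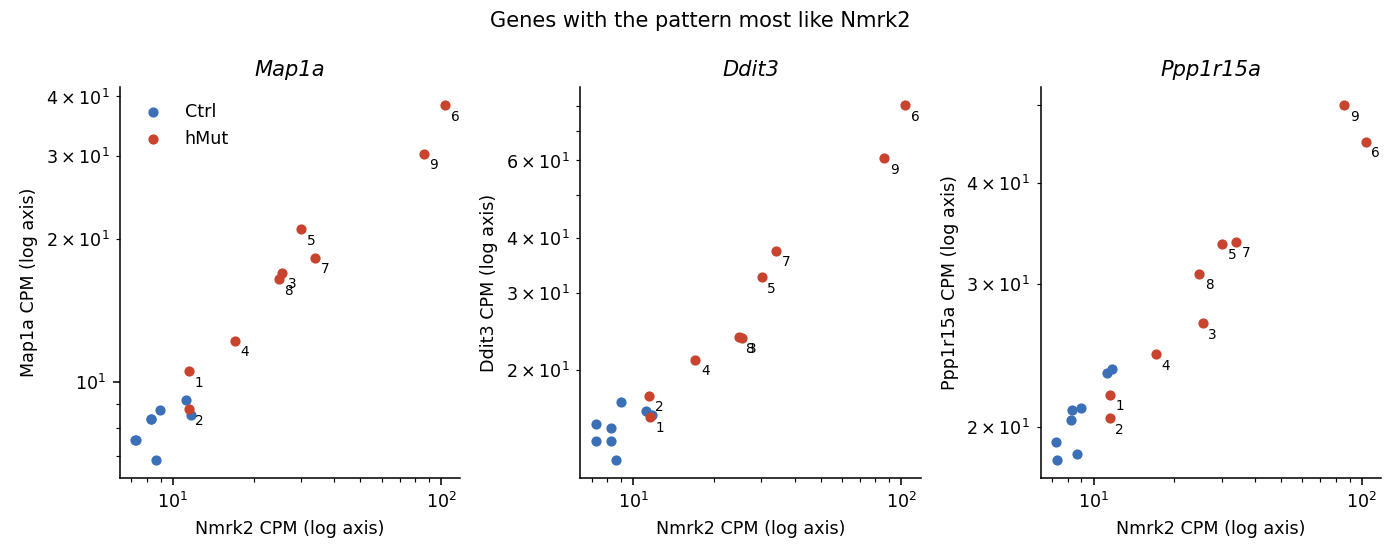
CPM of *Map1a*, *Ddit3* and *Ppp1r15a* against CPM of *Nmrk2* in the same heart, both axes logarithmic; points are hearts and hMut hearts carry their replicate number. The hMut replicates 1 and 2 lie among or next to the Ctrl hearts in all 3 panels, and replicates 6 and 9 are the highest in each.

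*Nmrk2* shares its locus with an antisense transcript. *Atcayos*, a long noncoding RNA on the plus strand from 81030443 to 81046711, spans the whole of *Nmrk2* and covers 531 of its 2203 exon bases in GENCODE (24.1%). Whether the reads were counted by strand is not stated, so reads from the shared bases cannot be assigned with certainty. *Atcayos* and its other neighbour *Atcay* were chosen for description after their values were seen.

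*Atcayos* ranged from 53.4 to 71.5 CPM in Ctrl and from 29.8 to 72.8 CPM in hMut (log2 fold change -0.34, SE 0.14, edgeR adjusted p = 0.130). Its lowest hearts were hMut replicates 6 (29.8 CPM) and 9 (36.8 CPM), the 2 with the most *Nmrk2*, and the correlation of the deviations of both genes was -0.80 over 17 hearts and -0.52 without those 2. *Atcay*, which encodes the brain protein caytaxin and lies further along chromosome 10 from 81040342 to 81066667, fell from 3.35 ± 0.65 CPM (SD, n = 8) to 1.74 ± 0.74 CPM (SD, n = 9), a log2 fold change of -0.95 (SE 0.20, adjusted p = 0.0137).

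**Figure D3:**
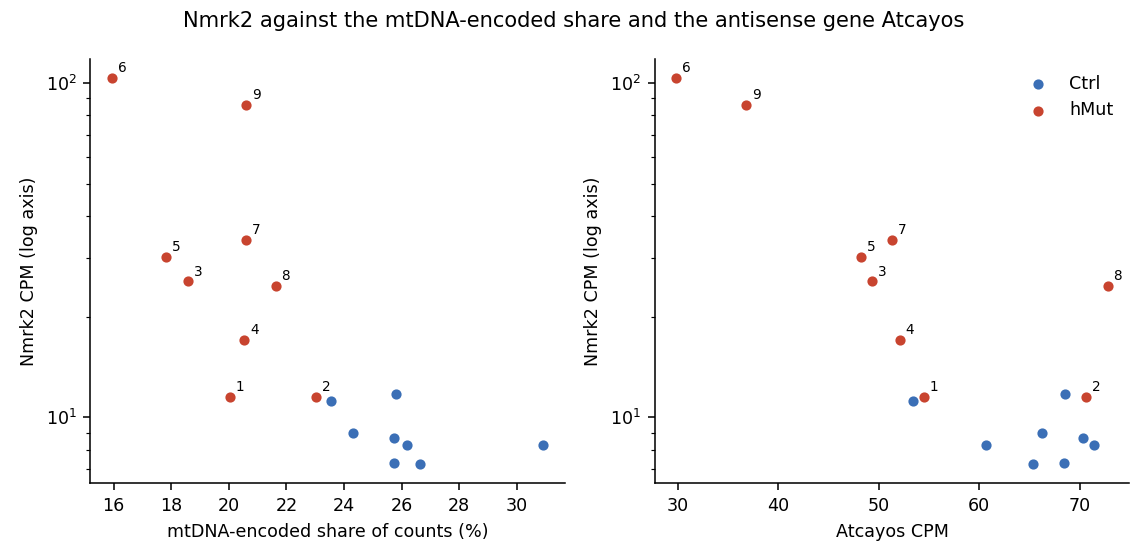
CPM of *Nmrk2* on a logarithmic axis against the mtDNA-encoded share of counts in percent (left) and against CPM of *Atcayos* (right); points are hearts and hMut hearts carry their replicate number. Replicates 6 and 9 have the lowest *Atcayos* values, 29.8 and 36.8 CPM, and replicate 9 has a mtDNA-encoded share close to the hMut median of 20.5%.

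The mtDNA-encoded share of counts lay between 23.5% and 30.9% in Ctrl and between 15.9% and 23.0% in hMut. Whether the members followed this share among the 9 hMut hearts was tested by exact two-sided permutation of the pairings. For 0 of the 10 members did the Pearson correlation pass an adjusted p of 0.05, and the smallest unadjusted p was 0.0884 (*Sirt3*, r = 0.61, Spearman's rho = 0.33, exact permutation p of rho = 0.385, both adjusted over 10 members to 0.245 and 0.661). Without replicates 5 and 6, the hearts farthest from the median share, r for *Sirt3* was -0.067 and the relation rested on those hearts.

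Over the 9 hMut hearts *Nmrk2* had r = -0.58 (exact permutation p = 0.0968, adjusted p = 0.245). Its rho was -0.47 (exact permutation p = 0.213, adjusted p = 0.531). Replicates 6 and 9 stand apart in *Nmrk2*. In the other 7 hMut hearts, a subset chosen after the data were seen, r was -0.51 (exact permutation p = 0.247, adjusted p = 0.743). Ranked values gave a rho of -0.43 (exact permutation p = 0.354, adjusted p = 1). For *Nampt*, r over the 9 hMut hearts was 0.47 (exact permutation p = 0.196, adjusted p = 0.326). In those 7 hearts *Nampt* had the highest correlation of the members, r = 0.77 (exact permutation p = 0.0438, adjusted p = 0.438). Its rho there was 0.79 (exact permutation p = 0.0480, adjusted p = 0.480). When replicates 5 and 6 were left out instead, its r was 0.61 (exact permutation p = 0.127).

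*Nampt*, the rate-limiting enzyme, did not pass the test. It ranged from 217 to 305 CPM in Ctrl (median 254) and from 172 to 273 CPM in hMut (median 211). In hMut, 6 hearts lay below every Ctrl heart, as at least 6 did for 5.22% of all genes, whereas hMut replicates 2 (273 CPM) and 8 (257 CPM) lay well within the Ctrl range. The means were 255 ± 24.6 CPM (SD, n = 8) and 216 ± 31.1 CPM (SD, n = 9), a log2 fold change of -0.24 (95% confidence interval -0.41 to -0.07, edgeR adjusted p = 0.0882). Without hMut replicate 2 it was -0.29 (adjusted p = 0.0209) and *Nampt* was called lower. With counts scaled on cardiomyocyte genes it was -0.023 (edgeR adjusted p = 0.802), or -0.25 relative to the median over all genes tested.

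*Nmrk1*, the ubiquitous riboside kinase, lay just outside the threshold. It ranged from 3.54 to 5.60 CPM in Ctrl (median 4.48) and from 3.43 to 4.08 CPM in hMut (median 3.70). All 9 hMut hearts were below the Ctrl median, and 3 were below every Ctrl heart. The log2 fold change was -0.29 (95% confidence interval -0.46 to -0.11, edgeR adjusted p = 0.0549). DESeq2, which called 9.33% of the genes it tested, gave *Nmrk1* an adjusted p of 0.0255 and called 2 members, *Nmrk1* and *Nmrk2*. With counts scaled on cardiomyocyte genes the log2 fold change of *Nmrk1* was -0.055 (edgeR adjusted p = 0.684), or -0.29 relative to the median over all genes tested.

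Between the salvage enzymes the balance of transcripts moved, as the ratio of CPM per kb of gene length shows within each heart. *Nmrk2* exceeded *Nmrk1* by 2.88 to 5.68 times in Ctrl hearts (median 3.89) and by 6.04 to 59.9 times in hMut hearts (median 14.8). The groups did not overlap in this ratio, whereas in *Nmrk2* alone hMut replicates 1 and 2 lay inside the Ctrl range. The ratio contains the rise of *Nmrk2*, is a description of 2 members and was not tested. How many other gene pairs separate the groups was not counted. *Nampt* exceeded *Nmrk2* by 8.15 to 13.1 times in Ctrl (median 10.7), and in hMut the ratio ran from 8.72 in replicate 2 to 0.735 in replicate 9 (median 3.03). In hMut replicates 6 and 9 the *Nmrk2* level per kb was thus above that of *Nampt*. The ratio of *Nampt* to *Nmrk1* covered similar ranges, 31.5 to 54.1 in Ctrl and 31.2 to 55.3 in hMut.

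None of the 7 sirtuins passed the edgeR test, and 0 passed with DESeq2. An unadjusted edgeR p under 0.05 was found for 2 of them, *Sirt1* and *Sirt4*, and for 4178 of the 16195 genes tested. The median log2 fold change over the 7 was -0.09. The log2 fold change was below 0 for 6 of the 7, and for 49.5% of all genes tested. It was above 0 for all 7 when counts were scaled on cardiomyocyte genes, a scaling that moved the median over all genes tested to 0.23.

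*Sirt1*, the nuclear deacetylase that acts on PGC-1α and FOXO proteins, ranged from 14.5 to 20.5 CPM in Ctrl (median 17.6) and from 13.5 to 18.4 CPM in hMut (median 14.4). In hMut, 5 hearts lay below every Ctrl heart, the highest of them replicate 9 at 14.45 CPM against 14.47 CPM in the lowest Ctrl heart. The share of all genes with 5 such hearts was not counted. Neither was a share for the counts of hearts given for *Nmrk1*, *Sirt2* and *Sirt7*. Replicate 6 (13.5 CPM) was the lowest of all hearts, and replicate 8 was the highest of its group. The log2 fold change was -0.18 (95% confidence interval -0.34 to -0.02, edgeR adjusted p = 0.157). *Sirt6*, a chromatin deacylase, ranged from 5.31 to 6.58 CPM in Ctrl and from 4.28 to 6.42 CPM in hMut (log2 fold change -0.07, adjusted p = 0.551). *Sirt7*, the nucleolar sirtuin, kept to 9.33 to 11.2 CPM in Ctrl but spread from 8.19 to 13.2 CPM in hMut. In hMut, 4 hearts were below and 3 above every Ctrl heart, the highest being replicates 6 (13.2 CPM) and 9 (12.2 CPM), and the log2 fold change was -0.02 (adjusted p = 0.900).

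*Sirt2*, the cytosolic tubulin deacetylase, ranged from 73.3 to 81.4 CPM in Ctrl (median 75.5) and from 73.4 to 88.7 CPM in hMut (median 79.6). In hMut, 3 hearts, led by replicate 9, exceeded every Ctrl heart, and the log2 fold change was 0.07 (95% confidence interval -0.01 to 0.16, adjusted p = 0.268).

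Among the mitochondrial sirtuins, *Sirt3*, the main deacetylase of the matrix, ranged from 35.4 to 43.5 CPM in Ctrl (median 37.5) and from 26.1 to 41.4 CPM in hMut (median 36.4). *Sirt5*, which removes succinyl and malonyl groups, ranged from 24.6 to 32.9 CPM in Ctrl (median 29.1) and from 19.2 to 30.4 CPM in hMut (median 27.5). In both genes the lowest hearts of the series were hMut replicate 6 (26.1 CPM of *Sirt3*, 19.2 CPM of *Sirt5*) and hMut replicate 9 (33.1 and 23.0 CPM). The log2 fold changes were -0.09 for *Sirt3* (adjusted p = 0.457) and -0.14 for *Sirt5* (adjusted p = 0.258), and -0.01 and -0.06 without those 2 hearts. *Sirt3* shares 5.21% of its exon bases with *Psmd13* and 5.38% with *Ric8a*, both on the other strand. Reads from those bases cannot be assigned with certainty, and their part of the *Sirt3* counts was not measured. *Sirt4*, which acts on glutamate dehydrogenase and malonyl-CoA decarboxylase, ranged from 10.5 to 12.9 CPM in Ctrl and from 9.002 to 11.2 CPM in hMut. In hMut, 6 hearts were below every Ctrl heart, as at least 6 were for 5.22% of all genes tested, and replicate 6 was the lowest (9.002 CPM). The log2 fold change of *Sirt4* was -0.15 (95% confidence interval -0.27 to -0.02, adjusted p = 0.131).

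**Figure D4:**
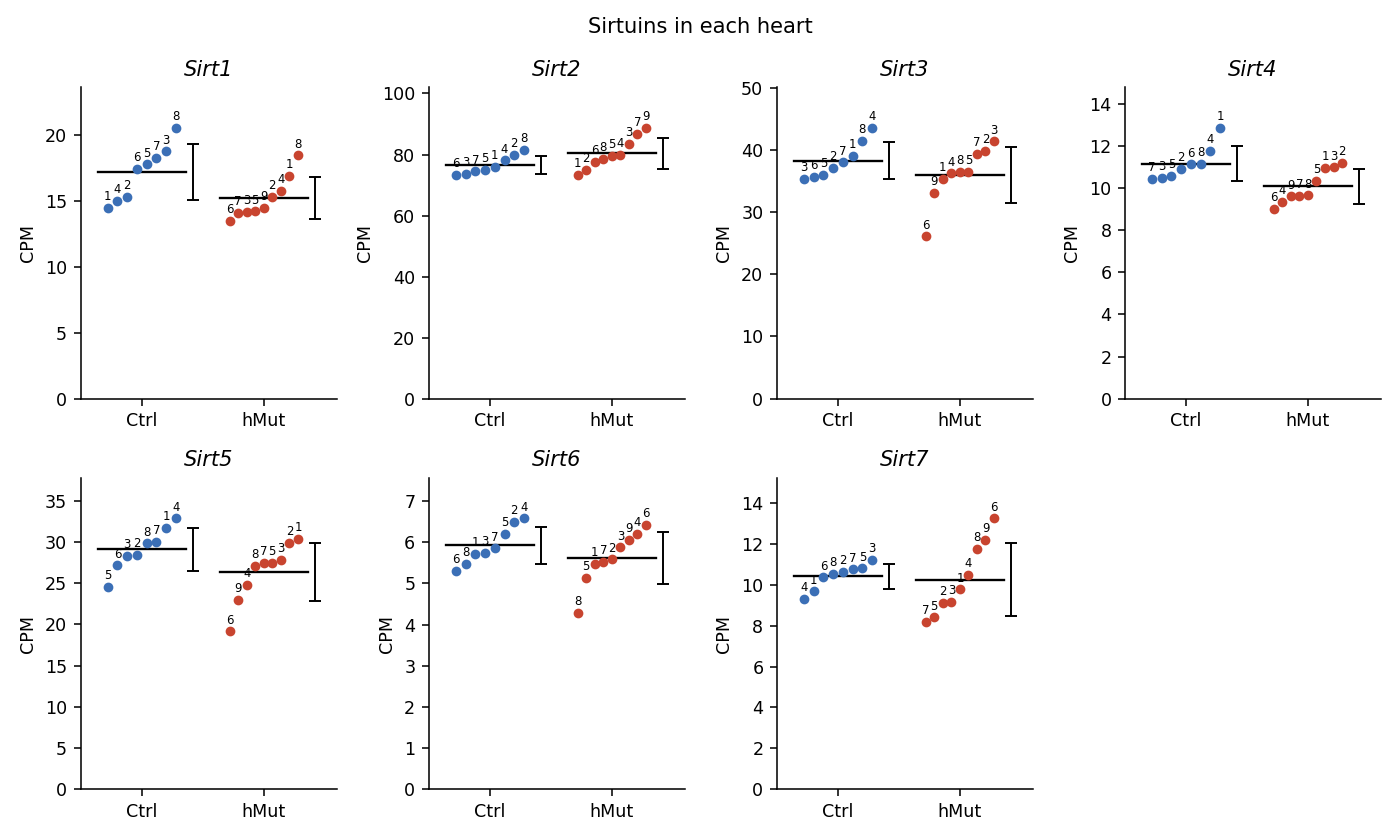
CPM of the 7 sirtuins in each heart (points, labelled by replicate number and sorted within a group), with the group mean as a line and the SD as a bar. The groups overlap in every panel. The lowest heart for *Sirt1* (13.5 CPM), *Sirt3* (26.1 CPM), *Sirt4* (9.002 CPM) and *Sirt5* (19.2 CPM) is hMut replicate 6, which is the highest for *Sirt7* (13.2 CPM).

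Levels of different genes can be compared per kb of gene length. In Ctrl hearts *Nampt* led with 50.5 ± 4.87 CPM per kb (SD, n = 8), followed by *Sirt2* with 15.2 ± 0.59 and *Sirt3* with 6.40 ± 0.49, which overlapped *Nmrk2* in range. *Nmrk2* (4.83 ± 0.90), *Sirt5* (4.78 ± 0.43) and *Sirt4* (4.66 ± 0.34) overlapped in range. *Sirt1* (3.22 ± 0.39) was below them in each heart, *Sirt6* (2.13 ± 0.17) and *Sirt7* (2.02 ± 0.12) overlapped, and *Nmrk1* (1.23 ± 0.17) was the lowest. In hMut hearts the order of the other members was the same, while *Nmrk2* stood second by its mean, 20.6 ± 17.9 CPM per kb (SD, n = 9), above *Sirt2* in 4 of 9 hearts.

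Of 63 other genes of NAD synthesis, transport, breakdown and use, 54 were tested and 2 were called higher and 0 lower. This share of 3.70% was close to that over all genes tested, of which 4.62% were called in either direction and 3.48% higher. *Slc12a8*, reported as an NMN carrier, ranged from 0.189 to 0.508 CPM in Ctrl and from 0.379 to 1.04 CPM in hMut (log2 fold change 0.81, SE 0.22, edgeR adjusted p = 0.0457). *Nt5e*, the surface enzyme CD73 that turns NMN into nicotinamide riboside outside the cell, ranged from 14.0 to 18.6 CPM in Ctrl and from 19.1 to 33.1 CPM in hMut. It was higher in all 9 hMut hearts than in any Ctrl heart (log2 fold change 0.51, SE 0.11, adjusted p = 0.0111). At least 7 hMut hearts lay above every Ctrl heart for 3.80% of all genes tested, and the share for all 9 was not counted.

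The step after the salvage enzymes, NMN adenylylation, had 0 of 3 genes called, and the most abundant, the nuclear *Nmnat1*, had a log2 fold change of -0.15 (adjusted p = 0.253). In the Preiss-Handler route from nicotinic acid, *Naprt* had -0.31 (adjusted p = 0.0583), with 0 of 2 genes called. Of the 9 genes of synthesis from tryptophan, 4 were tested and 0 were called, and *Afmid*, the tested gene with the highest mean, had a log2 fold change of -0.34 (adjusted p = 0.217). Of the 3 genes of NAD phosphorylation and NADPH balance 0 were called, and *Nadk2*, the mitochondrial NAD kinase, had -0.31 (adjusted p = 0.0882). The other NAD kinase gene, *Nadk*, named after its values were seen, went the other way at 0.25 (edgeR adjusted p = 0.0933). *Nnt*, the mitochondrial transhydrogenase and a gene chosen after its values were seen, lay between 0.721 and 2.24 CPM in all 17 hearts.

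Other NAD-consuming enzymes gave no call. Of 17 poly- and mono-ADP-ribosyltransferases 0 were called, with *Art1* at -0.30 (adjusted p = 0.0708), *Tnks* at 0.12 (0.164) and *Parp1* at -0.14 (0.191) as log2 fold changes with adjusted p. *Cd38*, the main NAD glycohydrolase, had 0.10 (adjusted p = 0.618). For nucleotide breakdown *Nt5c* had 0.33 (adjusted p = 0.0882) and *Nt5c3* -0.18 (adjusted p = 0.138). For repair of damaged NADH *Naxe* had -0.01 (adjusted p = 0.941), for nicotinamide clearance *Aox1* had 0.01 (adjusted p = 0.926), and for ADP-ribose removal *Macrod1* had -0.20 (adjusted p = 0.230).

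**Figure D5:**
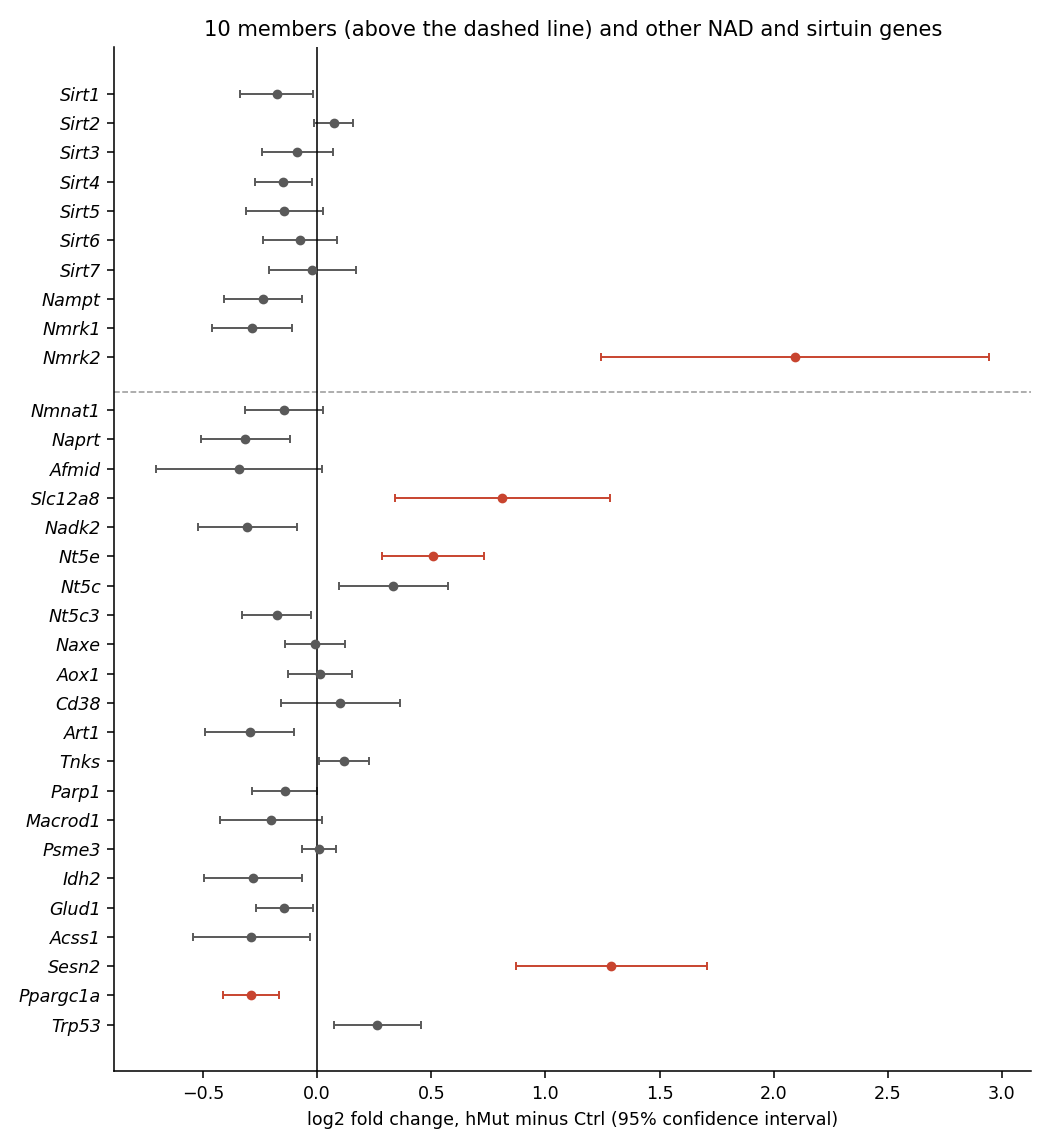
Log2 fold changes (hMut minus Ctrl) with 95% confidence intervals for the 10 members, above the dashed line, and for other NAD and sirtuin genes; red marks an edgeR adjusted p under 0.05. *Nmrk2* (2.09) is the only red member, and *Slc12a8*, *Nt5e*, *Sesn2* and *Ppargc1a* are the red genes below the line.

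Genes around the sirtuins were read from 3 further lists. Among 12 mitochondrial proteins known as sirtuin substrates 0 genes were called, and all 12 log2 fold changes were below 0 (median -0.16), as were those of the 10 cardiomyocyte markers (median -0.22), whose part in this was not tested. The values were -0.28 for *Idh2* (adjusted p = 0.110), -0.15 for *Glud1* (adjusted p = 0.141) and -0.29 for *Acss1* (adjusted p = 0.150). Of 4 regulators of SIRT1 0 were called, and *Psme3*, the most abundant, had 0.01 (adjusted p = 0.894). Among 19 AMPK and FOXO partners of SIRT1, 1 was called higher and 1 lower, when 4.62% of all genes tested were called in either direction. *Ppargc1a*, which encodes the coactivator PGC-1α, fell from a median of 94.6 to 76.2 CPM (log2 fold change -0.29, SE 0.06, edgeR adjusted p = 0.00812). For this gene 8 of 9 hMut hearts were below every Ctrl heart, when at least 6 were for 5.22% of all genes tested. *Sesn2*, a stress-induced activator of AMPK, rose from a median of 5.69 to 14.2 CPM (1.29, SE 0.20, adjusted p = 0.000994), and *Trp53* had 0.26 (adjusted p = 0.0938).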

How the data were processed

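The authors enriched polyadenylated RNA from 17 hearts (8 Ctrl, 9 hMut) and deposited raw counts per gene from featureCounts 2.0.6, after fastp filtering and HISAT2 2.2.1 alignment to GRCm39; the annotation release and strand setting are not given in the sources used here. The deposited gene length, in bases, was used for CPM per kb.

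Counts were tested with edgeR 4.0.16 (R 4.3.3; quasi-likelihood test, TMM, filterByExpr, genotype as the only term, Benjamini-Hochberg adjustment over 16195 genes, threshold 0.05, two-sided). Log2 CPM used a prior count of 2. The fit was tested on simulated data. DESeq2 1.42.0 and limma 3.58.1 were alternatives; correlations and plots used matplotlib 3.10.9, scipy 1.17.1, numpy 2.4.6 and pandas 2.3.3 under Python 3.11.15.

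Members and lists were chosen with earlier results of these data known. Named are all members; in other lists of at most 5 tested genes the called genes, or the most abundant if none was called; in longer lists the 3 genes with the smallest adjusted p; and the 3 genes most like a called member. Counts of *Xist* and Y-linked genes gave 5 female and 12 male libraries, used as a covariate in 1 alternative. Ctrl had 3 female and 5 male libraries, and hMut had 2 female, replicates 1 and 4, and 7 male. Intervals reflect the spread between hearts.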

Additional observations from a re-analysis of the deposited data

How the results depend on the processing

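*Nmrk2* kept its direction and its call in all 28 alternatives, with log2 fold changes from 1.30 to 2.45 and adjusted p from 3.53e-05 to 0.0398. Leaving out single hearts gave between 395 and 1792 called genes and between 1 and 3 called members; the 3, without hMut replicate 2, were *Nampt*, *Nmrk1* and *Nmrk2*. DESeq2 called 1517 genes and 2 members, limma-voom with sample quality weights 2081 and 2 (*Nampt* and *Nmrk2*), and no filter on low counts 463 genes. Upper-quartile normalization and the stricter filter each called 2 members, *Nmrk1* and *Nmrk2*. Leaving out both hMut replicates 6 and 9, chosen after the data were seen, called 431 genes. Scaling on cardiomyocyte genes called 6564 genes, 98.3% of them higher against 75.3% with TMM, and 2 members, *Sirt2* and *Nmrk2*. It turned the log2 fold changes of *Sirt1* to 0.041, *Sirt3* to 0.13, *Sirt4* to 0.074, *Sirt5* to 0.069, *Sirt6* to 0.16 and *Sirt7* to 0.23; relative to the median over all genes, which it moved to 0.23, these 6 were again below 0. *Sirt7* also changed sign without hMut replicate 5 (0.011) or 7 (0.015), in a range from -0.074 to 0.015 over the single hearts left out. Scaled on cardiomyocyte genes, *Nampt* stood at -0.023 and *Nmrk1* at -0.055. *Sirt2* stood at 0.31, or 0.075 relative to the median over all genes. The cardiomyocyte genes used for this scaling had a median log2 fold change of -0.22 with TMM, so setting them level raised the other genes. Why they lay lower was not tested. With the replicate number as a replicate block, 185 genes and 1 member, *Nmrk2*, were called; same-numbered hearts did not deviate together (correlations -0.23 to 0.34, over 0.1 in 1 of 8 pairs), so the numbers were not taken as pairs. No member followed the mtDNA-encoded share past the threshold under any of the 4 alternatives. Depth limits *Slc12a8* most among the called genes named, at no more than 46 counts per heart.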
